A study of Mus musculus with 36 samples.

Results

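The genes described here are the 50 that stood higher in inducible Ikaros pre-B cells than in control cells at every time from 2 h to 24 h, from about the same level at 0 h. They were selected from the 12762 genes of the table by their measured values. For each gene, d is the mean of the 3 Ikaros libraries minus the mean of the 3 control libraries at a given time, on the log2 scale. A gene entered when its mean over all 36 libraries was at least 9.5, its d at 0 h lay within 0.4 of 0, and its d was at least 0.7 at each of 2, 6, 12, 18 and 24 h. Because d chose the genes, values of d are given as a description and are not tested.

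The cells are B3, a mouse pre-B cell line, and the assay is stranded mRNA-seq. In the Ikaros line a retroviral vector (HA-Ikaros-ERt2-IRES-GFP) joins Ikaros to the ligand-binding part of an estrogen receptor, and the drug 4-hydroxy-tamoxifen (4-OHT) then lets the fusion enter the nucleus. Control cells have the same vector with ERt2 and GFP but no Ikaros. Both lines received 0.5 uM 4-OHT and were collected at 0, 2, 6, 12, 18 and 24 h with 3 libraries per line and time. In the labels 4-OHT is given for all libraries, while in the published methods the 0 h cells had none and came from a separate collection, so differences from 0 h within a line also compare collections. Both lines are pools of transduced cells sorted for GFP, and each condition was measured in culture batches of these same lines rather than in independently made lines. Ikaros was supplied from a vector on top of the Ikaros that B3 cells already make. Values are the deposited normalised log2 expression, and read counts per library were not used here, which leaves the depth behind a value unknown. In bulk RNA, a change in every cell and a change in the share of cells that express a gene cannot be told apart.

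Ikaros, encoded by Ikzf1, is a zinc finger transcription factor of lymphocytes that can both raise and lower the transcription of its targets. Pre-B cells divide under signals from the pre-B cell receptor and the interleukin-7 receptor, then leave the cell cycle and rearrange their immunoglobulin light chain genes. Rearrangement needs the RAG recombinase to cut DNA and the end-joining enzymes to close the breaks. The Ikaros-inducible B3 line is used as a model of that switch.

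Ikzf1 RNA lay between 13.95 and 14.85 in the 18 control libraries and between 19.63 and 20.93 in the 18 Ikaros libraries, 0 h included. No library stood against its line label. Within the Ikaros line Ikzf1 was higher at 24 h than at 2 h by 0.79 ± 0.18 (SE, n = 3 and 3, adjusted p = 0.00058, limma), and the part of this change in the results below was not tested. All 15 B lineage markers were in the table, with a mean level between 13.9 and 14.5 in control libraries and between 13.6 and 14.8 in Ikaros libraries from 2 h on. Of 15 T cell, 17 myeloid and 12 erythroid or megakaryocyte markers, 6, 3 and 5 were in the table. Their mean levels lay between 9.33 and 10.0, 6.41 and 9.14, and 7.22 and 8.80 in Ikaros libraries from 2 h on, against 9.37 to 9.93, 6.51 to 7.89, and 7.71 to 8.41 in control libraries. At 0 h, Ikaros means were 8.03 to 8.51 for myeloid and 6.71 to 7.12 for erythroid or megakaryocyte markers, outside the control ranges. T cell means, from 9.95 up, were also outside, and B lineage means were inside. Single markers moved more than these means. The erythroid gene Hbb-b2 averaged 9.34 at 0 h, 10.9 at 2 h and 14.3 at 24 h in Ikaros cells. In control cells it averaged 12.4 to 12.8. From 2 h to 24 h in Ikaros cells, Hbb-b2 and Epor passed the test as higher. In that test 10 B lineage markers rose and 4 fell (Igll1, Vpreb1, Vpreb2 and Dntt). Of T cell markers 2 rose and 3 fell, and of myeloid markers 1 rose and 2 fell. The part of these markers in the results was not tested.

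The filter on level left 9584 of 12762 genes, and the limit at 0 h left 8389. The requirement at 2 h removed most of these, since 144 genes remained after it, then 97 after 6 h, 63 after 12 h, 54 after 18 h and 50 after 24 h. Over the whole table, the number of genes with d of at least 0.7 went from 905 at 2 h through 1558, 2025 and 2795 at the times between to 3069 at 24 h. The 50 genes are therefore a small share of those that stood higher in Ikaros cells at 24 h, set apart by the early time points. Of the 50, 46 are annotated as protein coding, 2 as antisense RNAs and 1 as a long intergenic RNA, while Gm20645 has no position in the annotation used here (GENCODE on GRCm38). They lie on 17 chromosomes.

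The median d over the 50 genes went from 0.15 at 0 h to 0.87 (2 h), 1.38 (6 h), 1.51 (12 h), 1.82 (18 h) and 1.85 (24 h), and the median over all genes stayed between -0.03 and 0.00. The range over members was 0.70 to 3.13 at 2 h and 0.74 to 6.04 at 24 h. At 2 h, the level of d was already a median of 46.7% of its level at 24 h, with a range from 19.4% to 111%. The largest d of a gene fell on 24 h in 25 members, on 18 h in 12, on 12 h in 10, on 6 h in 3 and on 2 h in 0. In 14 members d was larger after every step from 2 h to 24 h.

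**Figure D1:**
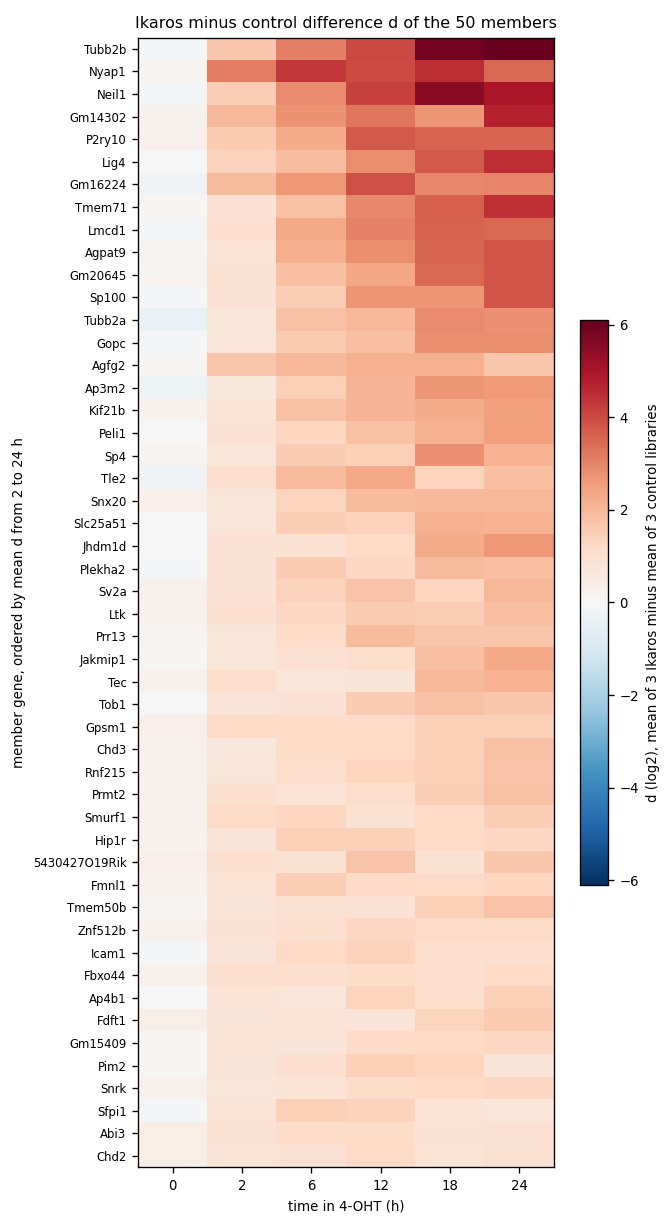
Difference d between Ikaros and control cells (colour, log2) for the 50 selected genes (rows, ordered by mean d from 2 to 24 h) against time (columns, h); each cell is the mean of 3 Ikaros minus the mean of 3 control libraries. The 0 h column is near 0 by selection, and the top rows deepen from 2 h to 24 h up to 6.04 for Tubb2b.

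The libraries behind these means were well separated. In 47 of 50 members all 3 Ikaros libraries lay above all 3 control libraries at 2 h, and in 50 of 50 at every later time. Since the rule used these values, the shares of all genes with the same separation are given only as background. They were 13.4% at 2 h and 35.0% at 24 h, and were not computed for the times between. The 3 members whose libraries overlapped at 2 h were Gm20645, Kif21b and Gm15409. In 38 members the 15 Ikaros libraries from 2 h on all lay above the other 21 libraries, which was so for 1.43% of all genes. Within each batch d at 24 h was above 0 in 50 of 50 members, with batch medians of 1.87, 1.97 and 1.99. At 2 h it was above 0 in 49, 50 and 50 members, with batch medians of 0.94, 0.81 and 0.91. These batch values make up the d used by the rule, so they too are a description. The shares of all genes with d above 0 in a batch were not computed. At 24 h d was at least 0.7 in 49, 50 and 49 members in batches 1, 3 and 4. The shares of all genes were 24.8%, 24.3% and 26.2%.

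By the limits on d at 0 h and later, the change from 0 h must be larger in Ikaros than in control cells for every member. The sizes of these changes are therefore only described. They compare separate collections, which cannot be told apart here from the effect of time in the drug. Against 0 h of the same line, the median change over the members in Ikaros cells was 0.73 (2 h), 1.15 (6 h), 1.37 (12 h), 1.63 (18 h) and 1.80 (24 h). The medians in control cells lay between -0.09 and 0.02. The Ikaros level was above its own 0 h level in 50 of 50 members at each of these times. This again is a description, since the rule limits d at 0 h and at each of these times.

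Changes between later times within the Ikaros line were tested with limma over all 12762 genes (adjusted p under 0.05 for a call), because the rule sets a floor at each time and no order between times. The same libraries enter the rule and these tests. The spread of d over all genes was also wider at 24 h than at 2 h, with a 95th percentile of 2.08 against 0.85, so a common floor leaves more room above it at 24 h. The counts below are therefore given beside the share of all genes and carry no test of the group. From 2 h to 24 h in Ikaros cells, 43 of 50 members rose, against 30.2% of all genes, and 0 members fell, against 30.4% of all genes. At an unadjusted p under 0.05 the same limma test also gave 43 and 0 members, and 8204 of the 12762 genes in either direction. The median member change was 1.10, and the median over all genes was 0.02.

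The rises were spread over the time course. From 2 h to 6 h, 25 members rose (5.58% of all genes) and 0 fell (5.59%), with 32 and 0 at an unadjusted p under 0.05. From 6 h to 12 h, 13 members rose (10.9%) and 0 fell (9.87%), with 17 and 1 unadjusted. From 12 h to 18 h, 19 rose (12.0%) and 4 fell (13.5%). From 18 h to 24 h, 4 rose (1.65%) and 1 fell (4.13%). These step counts changed when 1 replicate, with 1 library in every group, was left out. Fewer libraries are in these fits by construction, and the shares of all genes in them are not given here. The rises from 2 h to 6 h numbered 8, 7 and 23 without replicates 1, 2 and 3. Those from 6 h to 12 h numbered 10, 5 and 11, and those from 12 h to 18 h numbered 12, 9 and 17. Those from 18 h to 24 h numbered 0 without replicate 1 and 0 without replicate 2, as did the fall from 18 h to 24 h. The falls from 12 h to 18 h numbered 3 in each case. The count from 2 h to 24 h was 36 to 42 in the same fits.

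**Figure D2:**
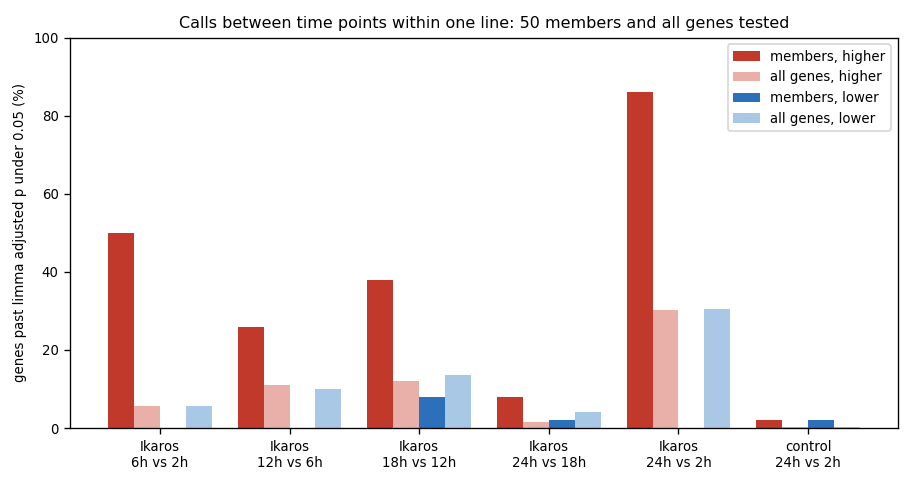
Share of genes (vertical axis, %) called higher or lower by limma (adjusted p under 0.05) between the named times (horizontal axis) within each line, for the 50 members (dark bars) and all 12762 genes (light bars). The members' bars for higher calls exceed those of all genes at every Ikaros step, and the control bars are near 0.

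In the control line few members passed the test from 2 h to 24 h. Fdft1 rose by 0.47 ± 0.10 (SE, adjusted p = 0.038, limma), Gm14302 fell by 1.66 ± 0.37 (adjusted p = 0.041), and the other 48 members did not pass. Among all genes 0.251% rose and 0.204% fell. Both member calls were lost when any 1 of the 3 replicates was left out and in a fit of the control libraries alone, so neither is firm. With an unadjusted p under 0.05 in limma, 4 members were higher and 8 were lower. The same limit gave 1541 of the 12762 genes in either direction, so movement below the adjusted limit is not excluded.

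**Figure D3:**
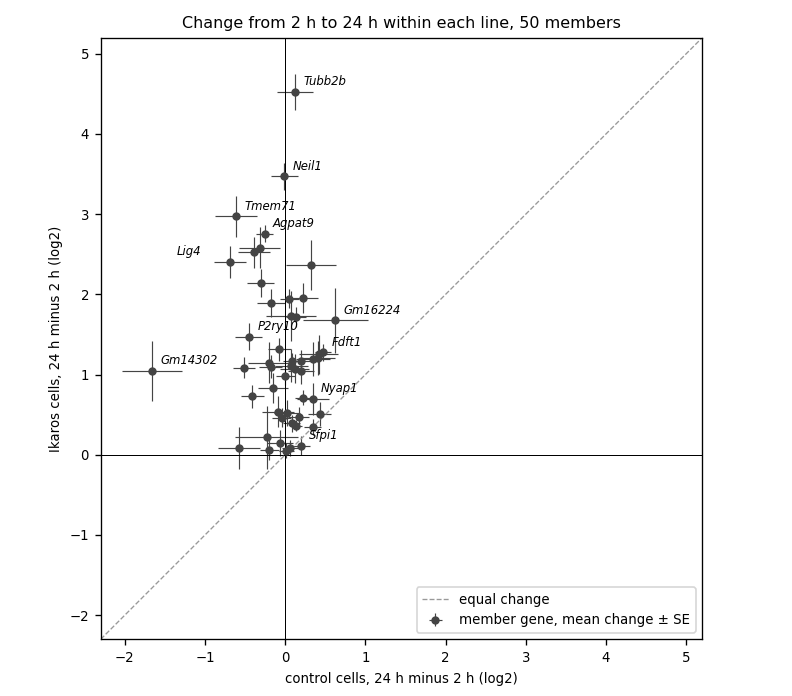
Change from 2 h to 24 h in control cells (horizontal axis, log2) and in Ikaros cells (vertical axis, log2) for each of the 50 members; points are limma estimates from 3 libraries per time, bars are SE and the dashed line marks equal change. Nearly all points lie above the dashed line, Tubb2b at the top with 4.53 in Ikaros cells and 0.12 in control cells, and Sfpi1 lies just below it.

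The beta-tubulin genes Tubb2b and Tubb2a, whose products build microtubules, lie near each other, and Tubb2b had the largest d of all members at 24 h. Tubb2b (ENSMUSG00000045136, GRCm38 chromosome 13, 34126748 to 34130466, minus strand) read 10.85, 10.49 and 10.25 in the Ikaros libraries at 0 h, 12.31, 11.91 and 11.50 at 2 h and 16.69, 16.18 and 16.42 at 24 h. The control libraries read 10.78, 10.53 and 10.69 at 0 h and 10.48, 10.77 and 9.93 at 24 h. Every Ikaros library from 2 h on was above every control library. Its d was 1.63 at 2 h, or 3.10-fold, and 6.04 at 24 h, or 65.7-fold. In Ikaros cells Tubb2b rose by 1.30 ± 0.23 from 2 h to 6 h (adjusted p = 0.00038), by 1.13 ± 0.23 from 6 h to 12 h (adjusted p = 0.00095) and by 1.60 ± 0.23 from 12 h to 18 h (adjusted p = 9.9e-06).

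Tubb2a lies 48741 bases from Tubb2b on the same strand (chromosome 13, 34074274 to 34078007). It read 12.73, 12.31 and 12.13 in Ikaros cells at 2 h and 14.93, 14.66 and 14.67 at 24 h, with d of 0.74 and 2.79. It rose between these times by 2.36 ± 0.31 (adjusted p = 3.2e-07). The annotated transcripts of the pair share sequence: 40.2% of the 75-base windows of Tubb2a occur in Tubb2b and 29.3% the other way, so reads of the 2 genes may have been exchanged in alignment or dropped, and the smaller change of Tubb2a is uncertain for that reason.

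The other members of the cytoskeleton group, sorted here by known role, were Kif21b, Jakmip1, Fmnl1, Hip1r and Abi3. Kif21b, a kinesin motor, rose by 1.73 ± 0.31 from 2 h to 24 h in Ikaros cells (adjusted p = 2.9e-05), and Jakmip1, a microtubule-binding protein, rose by 1.08 ± 0.13 (adjusted p = 8.7e-08). Jakmip1 read 12.72, 12.60 and 12.92 at 2 h and 13.82, 13.76 and 13.90 at 24 h, and the rise passed the test in the step from 12 h to 18 h, by 0.88 ± 0.13. Fmnl1, a formin that elongates actin filaments, rose early, by 0.53 ± 0.09 from 2 h to 6 h (adjusted p = 0.00046). Abi3, a member of the complex that drives branched actin growth, changed by 0.05 ± 0.09 from 2 h to 24 h (adjusted p = 0.65), with Ikaros libraries at 14.26, 14.11 and 14.27 at 2 h and at 14.23, 14.38 and 14.19 at 24 h. The group thus held both the member that changed most after 2 h and the member with the smallest later change.

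Both members with a role in DNA repair went on rising for most of the day. Lig4 encodes DNA ligase IV, which seals the breaks made during V(D)J recombination and other double-strand breaks. Lig4 (ENSMUSG00000049717, chromosome 8, 9969049 to 9977686, minus strand) read 10.82, 10.74 and 10.97 in Ikaros cells at 0 h, 12.71, 12.30 and 12.15 at 2 h and 14.79, 14.77 and 14.81 at 24 h. The control libraries at 24 h read 10.62, 10.51 and 9.70. The groups did not overlap at any time from 2 h on, and d was 1.42 at 2 h and 4.51 at 24 h, or 22.8-fold. In Ikaros cells Lig4 rose by 0.70 ± 0.20 from 6 h to 12 h (adjusted p = 0.014) and by 1.17 ± 0.20 from 12 h to 18 h (adjusted p = 0.00011).

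Neil1, a glycosylase that removes oxidised bases at the start of base excision repair, lies on chromosome 9 (57142800 to 57148305, minus strand). It read 12.78, 12.63 and 12.53 in Ikaros cells at 2 h, 16.39, 16.19 and 16.53 at 18 h and 16.28, 15.78 and 16.29 at 24 h. All 18 control libraries lay between 10.44 and 11.51. It rose by 1.24, 1.32 and 1.16 over the 3 steps from 2 h to 18 h, each ± 0.17, and its d was largest at 18 h with 5.52.

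Lig4 is in a list of 15 V(D)J recombination and end-joining genes. From 2 h to 24 h in Ikaros cells, 8 of the 15 rose, namely Rag1, Lig4, Xrcc6, Dclre1c, Rag2, Polm, Atm and Poll, and 4 fell, namely Dntt, Hmgb1, Xrcc5 and Prkdc, against 30.2% and 30.4% of all genes. The median change of the list was 0.54, against 0.02 for all genes. Xrcc6 and Xrcc5 encode the partner subunits of the Ku end-binding complex and moved in opposite directions.

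Among surface receptors and signalling proteins, Nyap1 had the largest early difference of all 50 members. Nyap1 encodes an adaptor that binds phosphoinositide 3-kinase (chromosome 5, 137729899 to 137741607, minus strand). It read 8.37, 8.24 and 8.29 in Ikaros cells at 0 h and 11.22, 11.09 and 11.23 at 2 h, while the control libraries at 2 h read 7.76, 8.42 and 7.96. The d of 3.13 at 2 h is 8.78-fold. It rose further by 1.10 ± 0.20 from 2 h to 6 h (adjusted p = 0.00065) and then lay between 12.11 and 12.65 until 18 h, and between 11.54 and 12.16 at 24 h. Its mean in the 18 control libraries was under the floor of 9.5, so the gene entered through its level in Ikaros cells; this was so for 7 members, with 5430427O19Rik, Gm16224, Jhdm1d, Prmt2, Tle2 and Tmem71. The tests of later changes in these 7 draw on the values that let them in. Among the 43 members at or above the floor in control cells, 37 rose from 2 h to 24 h in Ikaros cells.

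P2ry10, a receptor of lymphocytes for the lipid lysophosphatidylserine, read 12.71, 12.53 and 12.48 in Ikaros cells at 2 h and 14.08, 13.80 and 14.56 at 12 h. It rose by 0.61 ± 0.17 from 2 h to 6 h (adjusted p = 0.018) and by 0.97 ± 0.17 from 6 h to 12 h (adjusted p = 0.00024), and its later libraries lay between 13.91 and 14.25. Tec, a tyrosine kinase of antigen receptor signalling, stood at 11.17, 11.01 and 11.60 at 2 h and stayed between 10.40 and 11.31 at 6 h and 12 h. It then rose by 1.14 ± 0.21 from 12 h to 18 h (adjusted p = 0.00023), so its time course had a late step that d at 2 h does not show. Plekha2, a phosphoinositide-binding protein, rose by 1.07 ± 0.18 from 2 h to 24 h (adjusted p = 1.1e-05) and Ltk, a receptor tyrosine kinase, by 1.25 ± 0.24 (adjusted p = 8.1e-05). Gpsm1, a regulator of G proteins, and Snrk, a kinase related to AMPK, rose by 0.47 ± 0.13 and 0.46 ± 0.12.

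Icam1 and Pim2 rose and then partly came back. Icam1 encodes the adhesion molecule that binds the integrin LFA-1. Its Ikaros libraries read 12.84, 12.85 and 12.85 at 0 h, 13.72, 13.70 and 13.54 at 2 h, 14.35, 14.39 and 14.56 at 12 h and 13.91, 13.89 and 14.02 at 18 h. It rose by 0.40 ± 0.07 from 2 h to 6 h (adjusted p = 0.00033) and by 0.38 ± 0.07 from 6 h to 12 h (adjusted p = 0.00037), and fell by 0.49 ± 0.07 from 12 h to 18 h (adjusted p = 8.9e-06). Pim2, a serine and threonine kinase that promotes survival, rose by 0.45 ± 0.10 and 0.42 ± 0.10 over the same steps and fell by 0.36 ± 0.10 (adjusted p = 0.011). Its d was 0.78 at 2 h and again 0.78 at 24 h. From 2 h to 24 h Pim2 changed by 0.34 ± 0.10 in Ikaros cells (adjusted p = 0.0051, limma). The change in control cells was also 0.34 ± 0.10 (adjusted p = 0.14, limma). In the list of 33 measured adhesion and surface receptor genes that holds Icam1, 19 rose and 6 fell from 2 h to 24 h in Ikaros cells (30.2% and 30.4% of all genes), with a median change of 0.81.

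The transcription and chromatin members differed in the time of their largest level. Sfpi1, now Spi1, encodes the ETS factor PU.1 of the B and myeloid lineages (chromosome 2, 91082390 to 91115756, plus strand). Its Ikaros libraries read 13.34, 13.32 and 13.21 at 0 h, 14.07, 14.13 and 14.27 at 2 h, 14.98, 14.92 and 14.67 at 6 h, 14.69, 14.92 and 14.93 at 12 h, 14.33, 14.34 and 14.12 at 18 h, and 14.12, 14.51 and 14.19 at 24 h. It rose by 0.70 ± 0.12 from 2 h to 6 h (adjusted p = 0.00031) and fell by 0.58 ± 0.12 from 12 h to 18 h (adjusted p = 0.00074), and its d at 24 h, 0.74, was the only one of the 50 below that at 2 h. The 3 measured myeloid markers went different ways beside it in Ikaros cells: the mean of Itgam was 5.89 at 2 h and 9.35 at 24 h, that of Lyz2 9.34 and 4.68, and that of Prtn3 11.1 and 5.99.

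Tle2, a corepressor of the Groucho family, read 9.75, 9.96 and 9.90 at 2 h, 11.13, 11.26 and 10.95 at 6 h and 10.36, 10.59 and 10.06 at 18 h. It reached the level floor through its Ikaros libraries, so its tests draw on the values that let it in. It rose by 1.25 ± 0.16 from 2 h to 6 h (adjusted p = 1.5e-05), fell by 0.71 ± 0.16 from 12 h to 18 h (adjusted p = 0.0021) and rose by 0.58 ± 0.16 from 18 h to 24 h (adjusted p = 0.032). The fall of Tle2, Sfpi1, Icam1 and Pim2 made up all 4 member falls of that step. Each had risen from 2 h to 6 h.

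Sp100, a protein of nuclear bodies, and Lmcd1, a cofactor that binds GATA factors, had the largest later differences of this group. Sp100 read 11.32, 10.85 and 11.44 in Ikaros cells at 2 h and 13.71, 13.73 and 13.73 at 24 h, and rose by 2.52 ± 0.20 (adjusted p = 2.6e-11), the last step included, by 0.85 ± 0.20 from 18 h to 24 h (adjusted p = 0.0085). Lmcd1 read 11.35, 11.46 and 11.32 at 2 h and 13.63, 13.38 and 13.54 at 24 h and rose by 2.14 ± 0.17. Jhdm1d, now Kdm7a, a histone demethylase, read 10.06, 10.00 and 10.07 at 2 h and 10.60, 10.63 and 10.45 at 12 h. It rose by 0.88 ± 0.19 from 12 h to 18 h (adjusted p = 0.001), a test that draws on the Ikaros values that let it in. Chd3, the remodelling ATPase of the NuRD complex with which Ikaros is known to associate, read 14.29, 14.19 and 14.43 at 2 h and 15.45, 15.49 and 15.46 at 24 h, a rise of 1.16 ± 0.11 (adjusted p = 5e-10). The small RNA Gm22442 lies within Chd3 on the same strand, and its own d was 0.38 at 2 h and 4.65 at 24 h, so some reads in this interval may belong to it. Chd2, a related remodeller, rose by 0.51 ± 0.15 (adjusted p = 0.0044), with a change of 0.43 ± 0.15 in control cells (adjusted p = 0.22).

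Of the remaining genes of this group, Tob1, an antiproliferative protein, rose by 1.20 ± 0.22 from 2 h to 24 h. Prmt2, an arginine methyltransferase, rose by 1.21 ± 0.21, and Sp4, a transcription factor, by 1.15 ± 0.26. Prmt2 reached the level floor through its Ikaros libraries. Znf512b changed by 0.06 ± 0.12 (adjusted p = 0.69). Tob1 is in a list of 19 measured brakes of the cell cycle, of which 13 rose and 2, Cdkn1a and Ccng1, fell from 2 h to 24 h in Ikaros cells (30.2% and 30.4% of all genes), with a median change of 1.19. Sfpi1 is in a list of 42 measured lymphoid transcription factors, of which 26 rose and 8 fell against the same shares, with a median of 0.68.

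**Figure D4:**
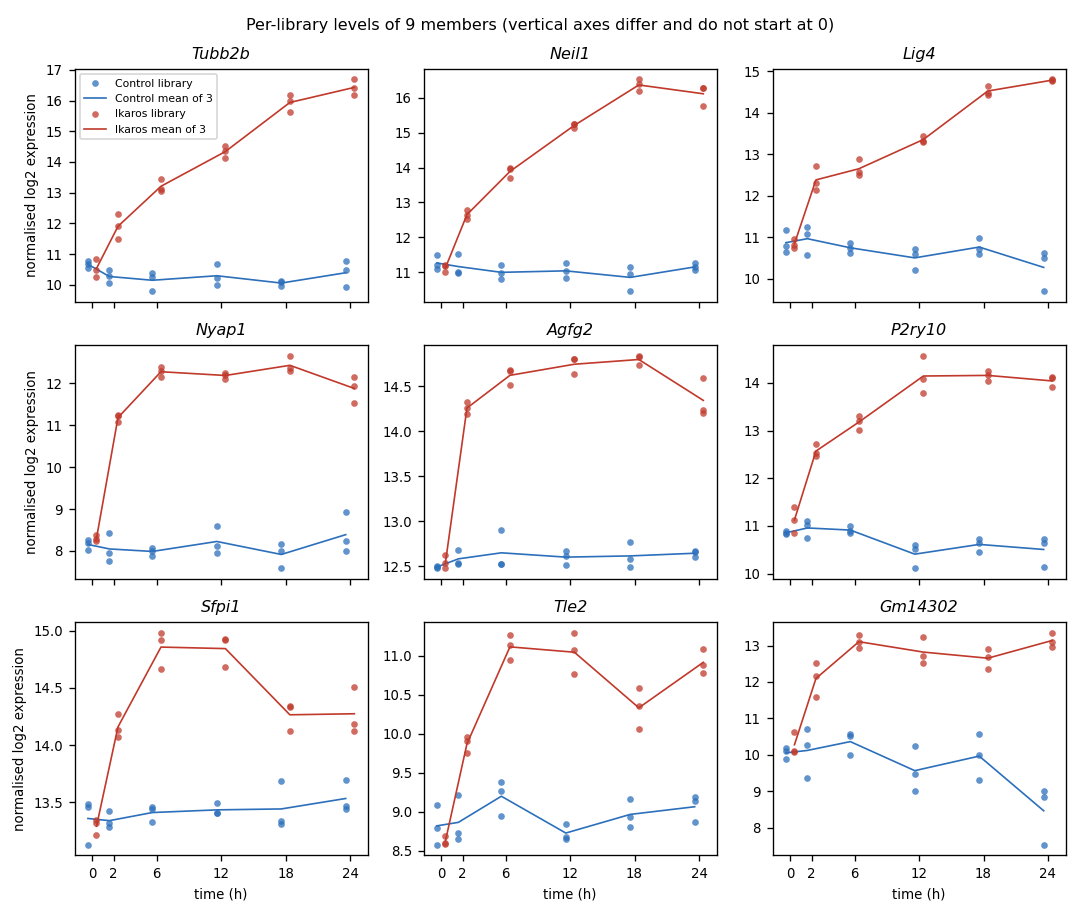
Normalised log2 expression (vertical axes, which differ between panels and do not start at 0) of 9 members against time (h); points are libraries, 3 per line and time, and lines join their means, with Ikaros in red and control in blue. Tubb2b, Neil1 and Lig4 climb through 18 h, Nyap1 and Agfg2 are near their plateau by 6 h, Sfpi1 and Tle2 drop from 12 h to 18 h, and the control libraries of Gm14302 are scattered.

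Vesicle and protein sorting genes were represented by 6 members. Agfg2, which encodes a protein with an ArfGAP domain, reached its level early. Its Ikaros libraries read 12.53, 12.48 and 12.62 at 0 h, 14.33, 14.19 and 14.26 at 2 h, 14.82, 14.84 and 14.74 at 18 h and 14.24, 14.20 and 14.59 at 24 h, and its 18 control libraries lay between 12.48 and 12.90. It rose by 0.36 ± 0.10 from 2 h to 6 h (adjusted p = 0.018) and fell by 0.46 ± 0.10 from 18 h to 24 h (adjusted p = 0.0053). Agfg2 (chromosome 5, 137650463 to 137684726, minus strand) lies 45173 bases from Nyap1 on the same strand. The 2 genes had the highest d at 2 h among the protein-coding members, 3.13 for Nyap1 and 1.68 for Agfg2.

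Gopc, a Golgi protein that sorts membrane proteins, rose by 1.90 ± 0.17 from 2 h to 24 h (adjusted p = 5.5e-10) and Ap3m2, a subunit of the AP-3 adaptor, by 1.95 ± 0.12 (adjusted p = 1.5e-13). Snx20, a sorting nexin, rose by 1.10 ± 0.14, Sv2a, a vesicle glycoprotein, by 0.73 ± 0.15, and Ap4b1, a subunit of AP-4, by 0.54 ± 0.20 (adjusted p = 0.022). Ubiquitin ligase genes numbered 4. Peli1, a ligase of Toll-like receptor signalling, read 12.41, 12.56 and 12.77 at 2 h and 14.11, 14.42 and 14.37 at 24 h, a rise of 1.72 ± 0.12 (adjusted p = 5.9e-12). Smurf1 and Rnf215 rose by 0.39 ± 0.11 and 0.83 ± 0.19, and Fbxo44 changed by 0.15 ± 0.16 (adjusted p = 0.46).

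Metabolic enzymes and carriers made up 3 members. Agpat9, now Gpat3, an acyltransferase that starts triglyceride synthesis, read 12.21, 12.09 and 11.90 at 2 h, 13.93, 13.75 and 13.77 at 12 h and 14.84, 14.82 and 14.81 at 24 h. It rose by 2.76 ± 0.10 (adjusted p = 1.9e-17), and d went from 0.82 to 3.83. Agpat9 was also named for a large difference between d at 24 h and at 2 h, so this test draws on values that picked it. The antisense gene 4930458D05Rik overlaps its start on the opposite strand, with d of -0.26 at 2 h and 3.74 at 24 h. Slc25a51, a mitochondrial carrier, rose by 1.31 ± 0.15. Fdft1, squalene synthase, rose by 1.28 ± 0.10 in Ikaros cells, beside the change of 0.47 in control cells given above.

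**Figure D5:**
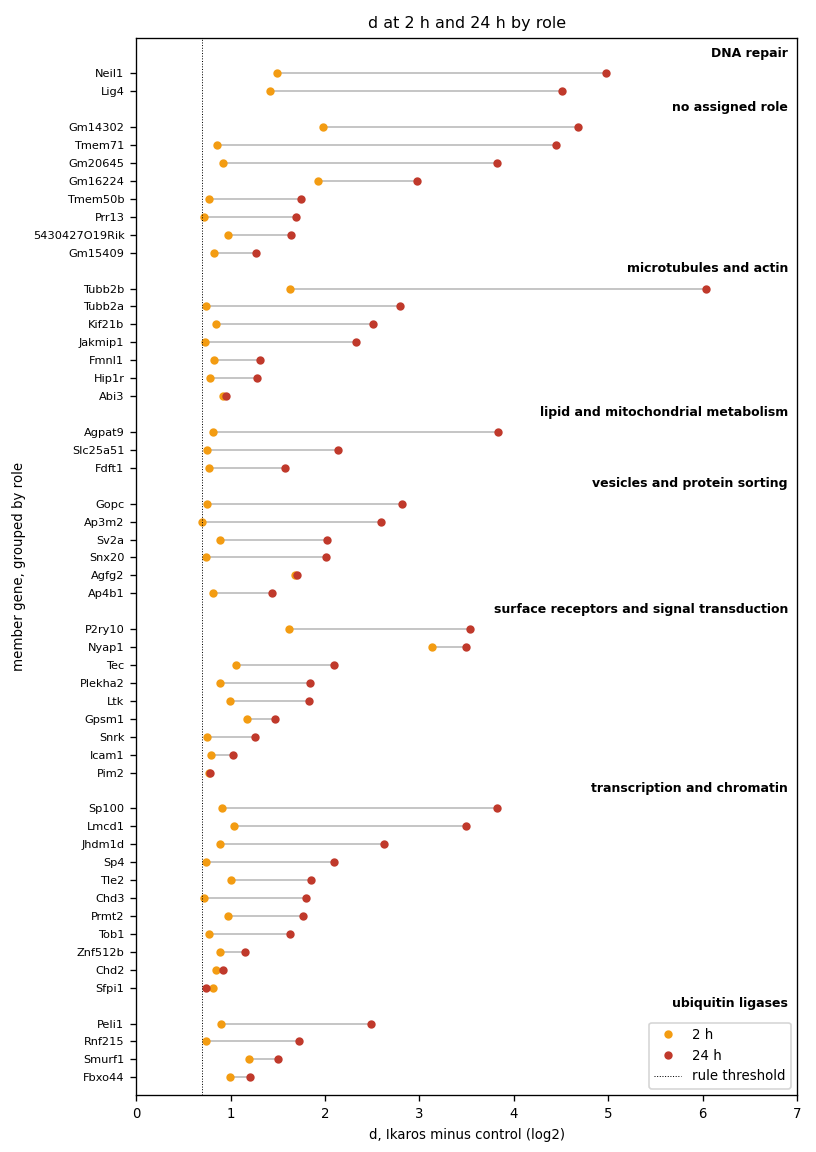
Difference d (horizontal axis, log2) at 2 h (orange) and 24 h (red) for each of the 50 members (rows), grouped by known role and ordered within a group by d at 24 h; the dotted line is the 0.7 limit of the rule. Most members sit close to the limit at 2 h, and Neil1, Lig4 and Tubb2b are among those that end farthest to the right.

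Of the members with no role assigned here, Tmem71, a membrane protein, read 9.47, 9.89 and 9.69 in Ikaros cells at 2 h and 12.76, 12.45 and 12.75 at 24 h, a change of 2.97 ± 0.26 (adjusted p = 1.8e-10). It is among the 7 members that reached the level floor through their Ikaros libraries. Tmem71 was also named for a large difference between d at 24 h and at 2 h, so the test draws on values that picked it. Prr13 and Tmem50b rose by 0.98 ± 0.12 and 1.17 ± 0.14. The RNA Gm20645 read 11.44, 11.51 and 10.42 at 2 h and 13.74, 13.67 and 13.71 at 24 h and rose by 2.58 ± 0.26. Gm14302 is annotated antisense within Sys1, and read 12.18, 11.58 and 12.53 at 2 h and 13.35, 12.96 and 13.10 at 24 h. Its rise of 1.04 ± 0.37 (adjusted p = 0.017) was lost without replicate 1 (adjusted p = 0.062) and without replicate 2 (adjusted p = 0.18), and its control libraries at 24 h read 9.02, 8.84 and 7.53. Gm16224 is annotated antisense within Runx3, a transcription factor of lymphocytes, and rose by 1.68 ± 0.41 (adjusted p = 0.00094). It too reached the level floor through its Ikaros libraries, so this test draws on the values that let it in. At 2, 6 and 24 h, the d of Runx3 was 1.08, 1.48 and 0.30 and that of Gm16224 was 1.93, 2.63 and 2.98. The d of Sys1 was 0.81 at 2 h and 0.20 at 24 h, and that of Gm14302 was 1.98 and 4.68. In both pairs d at 24 h was larger for the antisense gene, which was not tested. The libraries mark strand, but whether the counting used strand is not given in the sources used here, so reads of the partners may not be fully separated.

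In all, 32 members had at least 1 of the 4 steps from 2 h to 24 h called higher. In 8 of them 3 steps were called (Agpat9, Fdft1, Lmcd1, Neil1, Peli1, Sp100, Tmem71 and Tubb2b). The shares of all genes with as many calls were not computed, so the counts are a description only. In 18 members no step passed, although 13 of these rose from 2 h to 24 h as a whole. The 7 members without a call from 2 h to 24 h were 5430427O19Rik, Abi3, Agfg2, Fbxo44, Gm15409, Sfpi1 and Znf512b, with changes from 0.05 to 0.22, SE from 0.09 to 0.39 and adjusted p from 0.41 to 0.79. Sfpi1 and Agfg2 each rose at 1 step and fell at another, as given above, and the other 5 passed at no step with 3 libraries per time.

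The limit of 0.7 divides genes that differ little. Just inside it were Ap3m2 with a smallest later d of 0.70, Chd3 with 0.71 and Tec with 0.72. Just outside were Cerk with 0.70 (0.698), Dtx3 with 0.70 (0.696) and Lrrc57 with 0.69. Cerk, which encodes ceramide kinase, missed by its value at 2 h, and its d reached 5.17 at 24 h, more than every member apart from Tubb2b. Between 0.6 and 0.7 lay 35 other genes that met the remaining criteria, and between 0.7 and 0.8 lay 21 of the members. A further 85 genes passed every later limit and not the limit at 0 h, 83 of them because they were already higher in Ikaros cells, and 31 passed all limits on d and lay under the level floor. Without each replicate in turn, the rule found 50 to 61 genes and 26 of the 50 members were found in all 3 cases.

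Promoter sequence was looked at because Ikaros binds a short core. RefSeq windows of 300 bases (GRCm38.p6, 250 before to 50 after a start) were matched for 32 members by symbol, in 43 windows. The letters TGGGAA, the Ikaros core with a flanking T, were found on either strand in a window of 10 of 32 members, or 31.2% (95% Wilson interval 18.0% to 48.6%), and of 26.0% of the 9243 genes of the table with a window. By windows the shares were 23.3% of the 43 member windows and 25.6% of all 32851 promoter windows, which were not limited to genes of the table. The member share is near the background. CCGGAAG, an Ets core, was in 6 of 32 members (18.8%) against 21.7% of genes. GTAAACA (forkhead) and CACGTG (E-box) were in 0 of 32, against 2.99% and 11.9%, and 0 of 32 has a Wilson upper bound of 10.7%. By windows CCGGAAG went the other way, with 16.3% of member windows against 8.86% of all windows. GTAAACA and CACGTG were in 0% of member windows, against 3.65% and 7.15% of all windows. None of these shares was tested. A match shows letters only. The stretches around TGGGAA, or TTCCCA where it is read from the other strand, are printed for 8 members whose values are given above, with the core in capitals, 5′ to 3′ on the strand of the gene. A further match of Peli1, 15 bases before its start, and the matches of Gpsm1 and 5430427O19Rik are not printed. The windows of Lig4, Nyap1, Agpat9, Peli1, Tec, Jakmip1 and Fbxo44 belong to RefSeq starts inside the annotated gene. The other windows of Lig4, Nyap1, Jakmip1 and Fbxo44 hold no match.
Lig4, chr8:9976384-9976423, minus strand, core 95 bases before that start: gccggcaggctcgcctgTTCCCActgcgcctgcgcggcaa
Nyap1, chr5:137740029-137740052, minus strand, core 249 bases before that start: aTGGGAAtctgtgccaacctgatc
Agpat9, chr5:100846004-100846043, plus strand, core 208 bases before that start: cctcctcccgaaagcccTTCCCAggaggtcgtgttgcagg
Peli1, chr11:21091205-21091244, plus strand, core 102 bases before that start: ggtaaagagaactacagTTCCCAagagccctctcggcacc
Tec, chr5:72868673-72868698, minus strand, core 247 bases before that start: ggaTGGGAAgtccggacttagagaga
Jakmip1, chr5:37050698-37050737, plus strand, core 142 bases before that start: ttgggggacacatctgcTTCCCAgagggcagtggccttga
Prmt2, chr10:76238069-76238108, minus strand, core 226 bases before that start: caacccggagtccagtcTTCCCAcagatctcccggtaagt
Fbxo44, chr4:148158887-148158926, minus strand, core 86 bases before that start: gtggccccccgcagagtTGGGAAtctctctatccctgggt
The 8 genes differ widely in d at 24 h, from 1.21 for Fbxo44 to 4.51 for Lig4, and the members whose windows lack the letters include Neil1, Agfg2 and P2ry10.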

How the data were processed

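Per the labels and the methods of the study, the authors aligned stranded paired-end reads to mm10 with TopHat2 and counted genes with HTSeq in an intersection mode, with neither the strand setting nor a version given in the sources used here. The deposited values are log2 expression, which the authors corrected for GC content and length with cqn and for effects of library preparation with ComBat, with a constant added so that the lowest value is 1. Counts were not used here, which leaves the depth behind a value unknown, no counting error can be given and precision rests on 3 libraries per group. This adjustment before deposition may leave standard errors too small. The methods describe 0 h cells as collected separately, and differences from 0 h are descriptions only.

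The 50 genes were found by the rule given above (gene mean at least 9.5, d at 0 h within 0.4, later d at least 0.7). The rule, the gene lists and the tests were chosen with earlier results of these data known, and the role groups were written after the members' values were seen. Contrasts between times within a line came from a limma model (version 3.58.1, R 4.3.3, moderated by eBayes) with a mean for each of 12 groups over 36 libraries. P-values are two-sided with Benjamini-Hochberg adjustment over 12762 genes, called at an adjusted p under 0.05, and SE are those of the fit. The fit was tested on simulated data before use. Genes named were the 12 members with the largest mean d after 0 h, the 5 with the largest and the 5 with the smallest difference between d at 24 h and at 2 h, members in a gene list, the 3 nearest the limit on each side, and Ikzf1. Tests of later changes in the genes named by the difference between d at 24 h and at 2 h draw on values that picked them. Further members were named after their values were seen, so that each role is described. Marker lists were written for B, T, myeloid and erythroid or megakaryocyte cells. By Ensembl identifier 98.7% of genes were found in GENCODE.

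The labels give a batch number shared by both lines and by the times from 2 h on, so replicate numbers pair the libraries of these times. At 0 h the labels give batches 1, 2 and 4, and from 2 h on 1, 3 and 4. Replicate 2 is therefore batch 2 at 0 h and batch 3 later. Deviations from the group means of libraries with the same number correlated by 0.10, 0.04 and 0.03 in Ikaros cells and by 0.18, 0.14 and 0.25 in control cells for replicates 1, 2 and 3. Alternatives were a replicate block, a filter on low values, quantile normalization, eBayes with trend and robust settings, a fit of only the libraries of a line, leaving out each replicate, other limits of the rule, and the gene strand only for motifs. A floor on the control mean was added after the data were seen.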

Additional observations from a re-analysis of the deposited data

Results flagged for a closer look

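In 6 of the genes named by rule, all 3 Ikaros libraries were higher at 24 h than the 2 h library of the same replicate number, and all 3 control libraries were lower. The difference between the lines was not tested, since the rule used both lines at both times. Some genes named by rule were also picked for a large difference between d at 24 h and at 2 h, which favours this pattern. Of the 6, this holds for Tmem71, Lig4 and Agpat9. The share of all genes with the pattern was not computed. Tmem71 differed by 3.58 (log2), with Ikaros changes of 3.29, 2.56 and 3.06 and control changes of -0.66, -0.67 and -0.50. For Lig4 the difference was 3.10, from changes of 2.08, 2.47 and 2.66 against -0.63, -0.58 and -0.87. Agpat9 differed by 3.01, with control changes between -0.52 and -0.01, the last of which is close to 0. Lmcd1 differed by 2.45, with control changes between -0.49 and -0.16. P2ry10 differed by 1.92, with control changes between -0.61 and -0.37. Gm14302 differed by 2.70, and its control changes of -0.36, -1.44 and -3.17 made up more of this value than its Ikaros changes of 1.18, 1.39 and 0.57. Among these 6 genes the control change itself passed the limma test only for Gm14302, in the fit of all libraries.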

How the results depend on the processing

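Without each replicate in turn, total member calls in Ikaros cells ranged from 7 to 23 for 6 h against 2 h (25 with all libraries), from 5 to 12 for 12 h against 6 h (13), from 12 to 20 for 18 h against 12 h (23) and from 0 to 7 for 24 h against 18 h (5). Calls of higher members ranged from 7 to 23, 5 to 11, 9 to 17 and 0 to 5 in the same order, and calls of lower members from 0 to 1 for 12 h against 6 h and from 0 to 2 for 24 h against 18 h. Fewer libraries are in these fits by construction. In control cells the calls for 24 h against 2 h were 0 without any replicate, in total and in each direction, and 0 in a fit of only the control libraries; only the Ikaros libraries gave 2 lower members for 24 h against 18 h. The replicate block gave 28, 13, 24 and 6 calls for the 4 steps and 43 for 24 h against 2 h, and it changed no call of a gene named by rule. The median d at 24 h was 1.85 with all replicates and 1.92 to 1.96 without any 1 of them. With a later limit of 0.6 or 0.8 the rule found 85 or 29 genes, and with no floor or a floor at the median gene mean 81 or 25. TGGGAA and CCGGAAG were in 12.5% and 6.25% of member promoters on the gene strand alone. Among single genes, the change from 2 h to 24 h in Ikaros cells ranged from -0.017 to 0.22 for Sfpi1, from -0.059 to 0.12 for Abi3 and from -0.037 to 0.17 for Agfg2 without each replicate, below 0 without replicate 2 for Sfpi1 and Abi3 and without replicate 3 for Agfg2. Without replicate 1 the rises of Nyap1 (0.69) and Pim2 (0.35) no longer passed the test. The causes were not tested. Of 400 values recomputed under an alternative, 348 kept the direction and side of the threshold or stayed within 1.5 times the count or 1 SD, 41 moved further, 8 no longer passed the test and 3 changed sign.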

Other observations

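Other gene lists were counted in the same Ikaros contrast, 24 h against 2 h, for the genes around the 50 members. Of 20 measured Foxo factors and brakes of phosphoinositide 3-kinase signalling, 15 rose and 0 fell (limma, adjusted p under 0.05), with a median change of 1.70 and Pik3ip1, Klf2 and Cited2 at the top. Of 31 lysosome and autophagy genes 24 rose and 2 fell, with a median of 0.80. Of 16 genes for NF-kB subunits and feedback, the pathway in which Icam1 is a known target, 12 rose and 1, Traf3, fell. Of 22 measured genes of B cell receptor signalling, the pathway of Tec, 13 rose and 4 fell. Of 14 interferon response genes 11 rose and 1 fell. Other lists went both ways: 7 rose and 7 fell of 16 p53 targets, 7 and 6 of 19 AP-1 and immediate early genes, 6 and 5 of 19 genes of ERK feedback, 6 and 4 of 12 Bcl2 family genes, and 8 and 4 of 19 Notch pathway genes. Among all genes 30.2% rose and 30.4% fell in this contrast. No member of the 50 is in these lists.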
